A study of Mus musculus with 9 samples.

Results

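The 9 genes described here, P2ry12, P2ry13, Tmem119, Cx3cr1, Gpr34, Sall1, Siglech, Olfml3 and Fcrls, are known as homeostatic genes of microglia, the resident macrophages of the brain. They were chosen by symbol as a signature of unstimulated microglia, not by a measured value. All 9 were among the 53801 genes of the count table and among the 12538 protein-coding genes tested. The libraries came from CD11b+ cells (CD11b is a surface marker of myeloid cells) sorted by flow cytometry from the tumor-bearing hemispheres of male C57BL/6J mice, which were 10 to 12 weeks old when the study began. GL261 mouse glioma cells carrying tdTomato and luciferase had been implanted into the right striatum; the methods place the sort on day 28 and a figure legend on an earlier day. CTR mice received saline as vehicle. OAT-1746 mice received an oral inhibitor of arginase 1 and 2 at 50 mg/kg by gavage, 2 times a day from day 1. Anti-PD-1 mice received an antibody against the checkpoint receptor PD-1 at 2.5 mg/kg into the peritoneum on days 8, 10, 12 and 14, and COMB mice received both treatments. There were 2 libraries each of CTR, OAT-1746 and anti-PD-1 and 3 of COMB, with 13048075 to 18796479 counts per library. Anti-PD-1 2 was placed in its group by its title, since its treatment entry names a different antibody target. Values per library are in CPM, counts scaled to one total per library over the tested genes, with TMM factors. The lowest of the members' 81 counts was 3186, for Siglech in CTR 1, so counting error was small beside the gaps between OAT-1746 and CTR means. It was not small beside the closest values, such as those of Siglech in OAT-1746 1 and COMB 1. Libraries are written with their replicate number (CTR 1, OAT-1746 2), which puts no order on the replicates.

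Microglia arise from yolk sac progenitors and keep their identity in the adult brain under signals that include TGF-beta and CSF1R ligands. The genes of this signature encode receptors for nucleotides, a chemokine and lipids, other surface proteins, a secreted protein and a transcription factor. Their RNA is commonly used to tell microglia from macrophages derived from blood, and it is lower in microglia that respond to injury, amyloid or tumors.

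Promoters from RefSeq on GRCm38.p6 were available for 7 of the 9 members, and Tmem119 and Gpr34 had no entry in that set. Each covers 300 bases, from 250 bases upstream of a start site, and is written on the strand of its gene; Sall1 had 3 start sites, of which the first is shown. Matches on either strand to 4 short motifs of factors known in microglia are in capitals, and no matches overlapped. A match describes the sequence and does not show binding. GAGGAA, a PU.1 motif present in 28.3% of all 32851 promoters, began 48 bases before the start site of P2ry13 and 144 bases before that of Fcrls. On the opposite strand it lay across the start site of Siglech. CAGACA, a SMAD motif present in 21.04% of all promoters, began 89 bases before the start site of Fcrls and, on the opposite strand, 75 bases before that of Siglech. CTA and TAG with 4 bases between them, a MEF2 motif, was present in 3.69% of all promoters and among members only in Cx3cr1, 67 bases before the start site. The IRF motif of 2 GAAA with 2 bases between them, present in 3.44% of all promoters, matched 0 of the 9 member start sites. P2ry12, Olfml3 and the 3 start sites of Sall1 had no match to these motifs.
P2ry12 promoter, chr3:59262936-59263235, minus strand: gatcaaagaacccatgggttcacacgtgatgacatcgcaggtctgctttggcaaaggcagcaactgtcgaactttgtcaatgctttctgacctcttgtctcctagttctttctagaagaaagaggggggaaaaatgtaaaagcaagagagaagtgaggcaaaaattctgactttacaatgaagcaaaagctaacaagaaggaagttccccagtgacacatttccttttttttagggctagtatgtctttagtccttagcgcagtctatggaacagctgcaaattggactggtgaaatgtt
P2ry13 promoter, chr3:59210833-59211132, minus strand: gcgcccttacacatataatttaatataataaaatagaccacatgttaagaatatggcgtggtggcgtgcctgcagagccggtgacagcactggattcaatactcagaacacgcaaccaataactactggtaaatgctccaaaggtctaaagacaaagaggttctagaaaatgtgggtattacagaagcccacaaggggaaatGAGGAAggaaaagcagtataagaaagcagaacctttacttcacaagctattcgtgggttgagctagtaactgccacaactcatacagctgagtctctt
Cx3cr1 promoter, chr9:120068247-120068546, minus strand: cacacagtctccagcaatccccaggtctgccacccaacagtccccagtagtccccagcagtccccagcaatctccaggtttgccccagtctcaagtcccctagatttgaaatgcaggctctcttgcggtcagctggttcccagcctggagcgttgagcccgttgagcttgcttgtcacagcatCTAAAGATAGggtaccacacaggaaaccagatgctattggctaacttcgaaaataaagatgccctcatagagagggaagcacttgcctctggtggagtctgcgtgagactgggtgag
Sall1 promoter, chr8:89044113-89044412, minus strand: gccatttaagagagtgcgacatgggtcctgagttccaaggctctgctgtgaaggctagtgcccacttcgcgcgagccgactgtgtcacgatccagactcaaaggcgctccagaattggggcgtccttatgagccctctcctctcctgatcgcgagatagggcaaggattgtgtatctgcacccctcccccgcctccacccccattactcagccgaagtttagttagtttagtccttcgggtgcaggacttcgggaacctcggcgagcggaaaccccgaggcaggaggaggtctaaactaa
Siglech promoter, chr7:55767934-55768233, plus strand: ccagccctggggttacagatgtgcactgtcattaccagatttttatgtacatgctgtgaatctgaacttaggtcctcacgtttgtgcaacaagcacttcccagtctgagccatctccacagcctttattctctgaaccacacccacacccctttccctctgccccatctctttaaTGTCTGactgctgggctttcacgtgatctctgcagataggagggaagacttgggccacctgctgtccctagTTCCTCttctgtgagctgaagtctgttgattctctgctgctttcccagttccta
Olfml3 promoter, chr3:103737952-103738251, minus strand: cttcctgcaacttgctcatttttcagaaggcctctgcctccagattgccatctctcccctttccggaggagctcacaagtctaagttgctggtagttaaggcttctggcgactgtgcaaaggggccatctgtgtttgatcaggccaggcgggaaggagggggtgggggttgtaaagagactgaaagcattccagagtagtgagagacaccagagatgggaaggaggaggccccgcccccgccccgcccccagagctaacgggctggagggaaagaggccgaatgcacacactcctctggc
Fcrls promoter, chr3:87263475-87263774, minus strand: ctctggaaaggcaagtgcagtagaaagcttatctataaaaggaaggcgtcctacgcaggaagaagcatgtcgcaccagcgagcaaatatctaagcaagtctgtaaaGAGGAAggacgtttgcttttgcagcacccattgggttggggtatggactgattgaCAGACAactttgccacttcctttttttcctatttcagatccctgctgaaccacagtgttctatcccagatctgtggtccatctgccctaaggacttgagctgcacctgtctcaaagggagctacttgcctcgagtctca

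P2ry12 and P2ry13 encode purinergic receptors. P2ry12 (ENSMUSG00000036353, GRCm38 chr3:59216272-59262871, minus strand) encodes a G protein-coupled receptor for ADP. It was at 1376 and 2309 CPM in CTR 1 and 2, 3488 and 4726 in OAT-1746 1 and 2, 1802 and 1534 in anti-PD-1 1 and 2, and 2539, 1698 and 1612 in COMB 1 to 3. Both OAT-1746 libraries lay above the other 7 libraries, while CTR, anti-PD-1 and COMB overlapped. The OAT-1746 mean for P2ry12 was 4107 ± 875 CPM against 1843 ± 660 in CTR (SD, n = 2 each), a log2 fold change of 1.16 (SE 0.31, adjusted p 0.0708 in edgeR and 0.00922 in DESeq2). P2ry13 (ENSMUSG00000036362, chr3:59207892-59210882, minus strand) encodes a related ADP receptor beside it, and both genes lie within Med12l on the opposite strand. Its level was 751 and 1305 CPM in CTR, 1756 and 2070.3 in OAT-1746, 1118 and 912 in anti-PD-1, and 1338, 980.0 and 929 in COMB, in replicate order. The lowest of these libraries was CTR 1 and the highest OAT-1746 2, and again OAT-1746 did not overlap another group. For P2ry13, OAT-1746 averaged 1913 ± 222 CPM and CTR 1028 ± 391 (SD, n = 2 each), with a log2 fold change of 0.90 (SE 0.29, adjusted p 0.0870 in edgeR and 0.0321 in DESeq2). P2ry12 exons overlap those of Med12l on the opposite strand, and counting was by strand.

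Cx3cr1 (ENSMUSG00000052336, chr9:119901616-120069879, minus strand) encodes the receptor for the chemokine fractalkine. CTR libraries held 2944 and 4247 CPM of Cx3cr1, OAT-1746 libraries 5881 and 7576, anti-PD-1 libraries 4546 and 3569, and COMB libraries 5174, 3449.5 and 3386. COMB 1 was the nearest to the OAT-1746 libraries, and CTR, anti-PD-1 and COMB overlapped. Cx3cr1 averaged 6729 ± 1199 CPM in OAT-1746 and 3596 ± 921 in CTR (SD, n = 2 each), a log2 fold change of 0.90 (SE 0.29) with an adjusted p of 0.0848 in edgeR and 0.0273 in DESeq2. The annotated span of Cx3cr1 is longer than that of the other members and overlaps other genes, of which only Gm33858, on the opposite strand, has an exon that overlaps one of Cx3cr1.

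Gpr34 (ENSMUSG00000040229, chrX:13632089-13640858, plus strand) encodes a receptor for lysophosphatidylserine and lies within Cask on the opposite strand. Gpr34 was counted at 392 and 729 CPM in CTR, 937 and 1259 in OAT-1746, 619.6 and 486 in anti-PD-1, and 844, 649 and 560.1 in COMB. OAT-1746 1 was above COMB 1, the next library, and the other 3 groups overlapped. Gpr34 averaged 1098 ± 228 CPM with OAT-1746 against 560.3 ± 239 with vehicle (SD, n = 2 each), and the log2 fold change was 0.97 (SE 0.32, adjusted p 0.0893 in edgeR and 0.0333 in DESeq2).

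A further 3 members encode surface proteins. Tmem119 (ENSMUSG00000054675, chr5:113793729-113800516, minus strand) is a transmembrane protein gene used as a microglia marker. Tmem119 stood at 1436 and 2509.6 CPM in CTR, 3342 and 4098 in OAT-1746, 2185 and 1982 in anti-PD-1, and 2795, 2401 and 2151 in COMB. Here too the low end was CTR 1 and the high end OAT-1746 2, with an overlap of CTR, anti-PD-1 and COMB. The Tmem119 mean of 3720.0 ± 535 CPM in OAT-1746 stood against 1973 ± 759 in CTR (SD, n = 2 each), a log2 fold change of 0.92 (SE 0.27, adjusted p 0.0756 in edgeR and 0.0177 in DESeq2). Siglech (ENSMUSG00000051504, chr7:55768178-55778925, plus strand) encodes a protein of the family of sialic acid-binding lectins, and plasmacytoid dendritic cells also carry it. Siglech values were 191 and 273 CPM in CTR, 388 and 505 in OAT-1746, 272 and 272 in anti-PD-1, and 387, 234 and 255 in COMB. OAT-1746 1, at 387.6, was barely above COMB 1, at 387.2, so these groups were separated by less than 1 CPM. With library size as the only scaling, COMB 1 was above OAT-1746 1. OAT-1746 and CTR averaged 446 ± 82.9 and 232 ± 58.0 CPM of Siglech (SD, n = 2 each), with a log2 fold change of 0.94 (SE 0.28, adjusted p 0.0747 in edgeR and 0.0219 in DESeq2). Fcrls (ENSMUSG00000015852, chr3:87250758-87263738, minus strand) encodes a scavenger receptor of the Fc receptor-like family. In CTR it was at 744 and 1423 CPM, in OAT-1746 at 1948 and 2255, in anti-PD-1 at 1575 and 1322, and in COMB at 1669, 1090.4 and 1096. CTR 1 held the lowest Fcrls value and both OAT-1746 libraries the highest. Fcrls means were 2102 ± 217 CPM in OAT-1746 and 1084 ± 480 in CTR (SD, n = 2 each), a log2 fold change of 0.96 (SE 0.32, adjusted p 0.0942 in edgeR and 0.0372 in DESeq2).

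Olfml3 (ENSMUSG00000027848, chr3:103722222-103738001, minus strand) encodes a secreted glycoprotein. Olfml3 reached 1259 and 2135 CPM in CTR, 2533 and 3033 in OAT-1746, 1548 and 1481 in anti-PD-1, and 2027, 1590.25 and 1462 in COMB. CTR 2 came nearest to the OAT-1746 libraries, and the 3 other groups overlapped. With means of 2783 ± 353 CPM in OAT-1746 and 1697 ± 619 in CTR (SD, n = 2 each), its log2 fold change was 0.71 (SE 0.27), the smallest of the 9, at an adjusted p of 0.113 in edgeR and 0.0650 in DESeq2. Sall1 (ENSMUSG00000031665, chr8:89027235-89044162, minus strand) encodes a zinc finger transcription factor. Sall1 had 241 and 337 CPM in CTR, 516 and 618 in OAT-1746, 272 and 303 in anti-PD-1, and 370.3, 213 and 234 in COMB. It was the only member whose lowest library was COMB 2 and not CTR 1. Sall1 averaged 567 ± 72.6 CPM in OAT-1746 and 289 ± 67.8 in CTR (SD, n = 2 each), with a log2 fold change of 0.97 (SE 0.28, adjusted p 0.0740 in edgeR and 0.0190 in DESeq2).

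**Figure D1:**
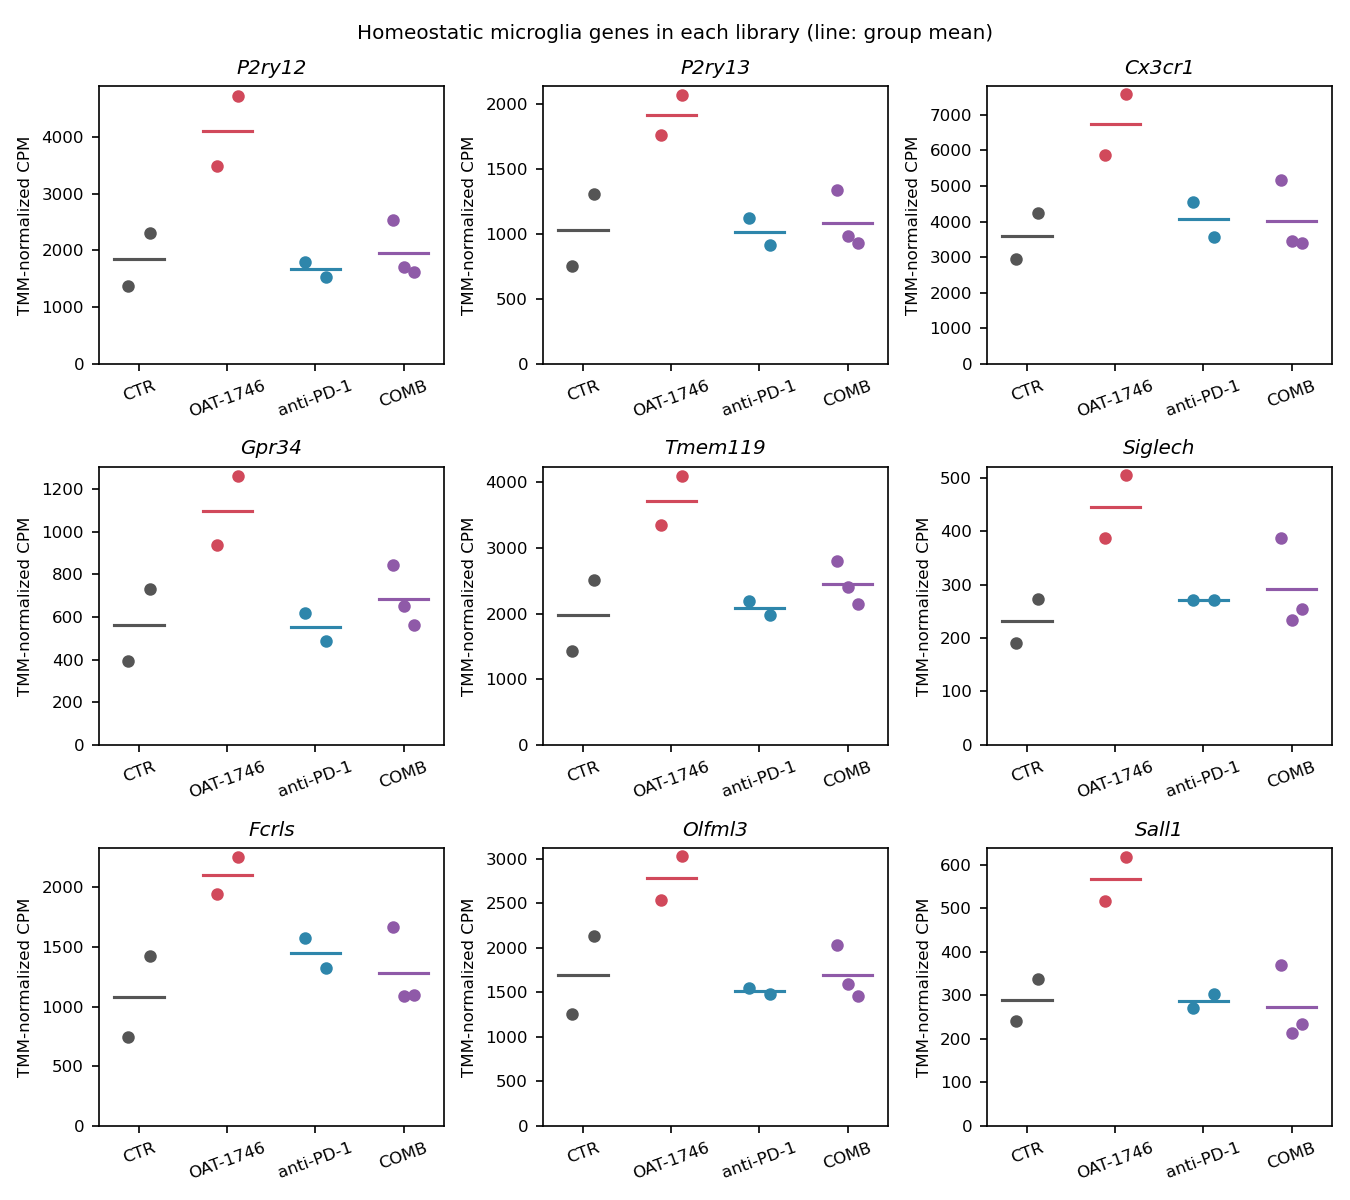
Level of each of the 9 members in each library, in CPM on a linear axis, with groups on the horizontal axis. The OAT-1746 libraries are above the other 7 libraries in each panel, as they are for 17.5% of all genes tested, for P2ry12 at 3488 and 4726 CPM against 1376 to 2539. For Siglech, COMB 1 is above OAT-1746 1 with library size as the only scaling.

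The comparison of OAT-1746 with CTR asks what the arginase inhibitor alone changed. edgeR called 0 of 9 members at an adjusted p under 0.05, as it called 0% of all genes tested, and the members' adjusted p ran from 0.0708 to 0.113. At an unadjusted p under 0.05, 9 of 9 members were higher in OAT-1746, against 16.1% of all genes. DESeq2 called 8 of 9 as higher, against 8.7% of all genes, Olfml3 being the exception. The median log2 fold change of the members was 0.94 (0.71 to 1.16), beside 0.01 for all genes. Both OAT-1746 libraries were above both CTR libraries for 9 of 9 members, against 30.8% of all genes, and above both anti-PD-1 libraries for 9 of 9, against 27.9%. Without OAT-1746 1, edgeR called 7 members and 28.2% of all genes tested; it called 0 members but 3.65% of all genes without the filter on low counts, and 0 members but 2.23% of all genes without COMB 1. The median was 0.60 without CTR 1, 1.34 without CTR 2 and 0.77 without OAT-1746 2.

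Summed over the members, the level was 9335 and 15267 CPM in CTR, 20788 and 26141 in OAT-1746, 13936 and 11861 in anti-PD-1, and 17143, 12306 and 11686 in COMB. The OAT-1746 mean of 23464 ± 3785 CPM (SD, n = 2) was above those of CTR (12301 ± 4195, n = 2), anti-PD-1 (12898 ± 1467, n = 2) and COMB (13712 ± 2987, n = 3). The members took 0.889% to 2.72% of the counts of a library. Other properties of the OAT-1746 libraries also stood apart: mitochondrial genes took 2.46% and 2.26% of their counts against 0.779% to 1.61% in the other 7 libraries, and ribosomal protein genes 3.62% and 2.80% against 4.37% to 6.03%. OAT-1746 2 had a median correlation of 0.927 with the other libraries over all genes tested, against 0.970 to 0.979 for the rest. Whether these properties bear on the members' levels was not tested. Within groups, CTR 2 was above CTR 1 for 9 of 9 members and OAT-1746 2 above OAT-1746 1 for 9. COMB 1 was the highest of its group for 9, and anti-PD-1 1 was above anti-PD-1 2 for 8. These orders are given for the members only, without the share of all genes that have them. Relative to the CTR mean, the median member stood at a log2 ratio of 0.76 in OAT-1746 1 and 1.08 in OAT-1746 2, and at 0.50 in COMB 1 against -0.06 and -0.09 in COMB 2 and COMB 3. Itgam, which encodes the sorted CD11b, was at 302 and 370 CPM in CTR, 445 and 446 in OAT-1746, 294 and 327 in anti-PD-1, and 366, 307 and 328 in COMB.

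**Figure D2:**
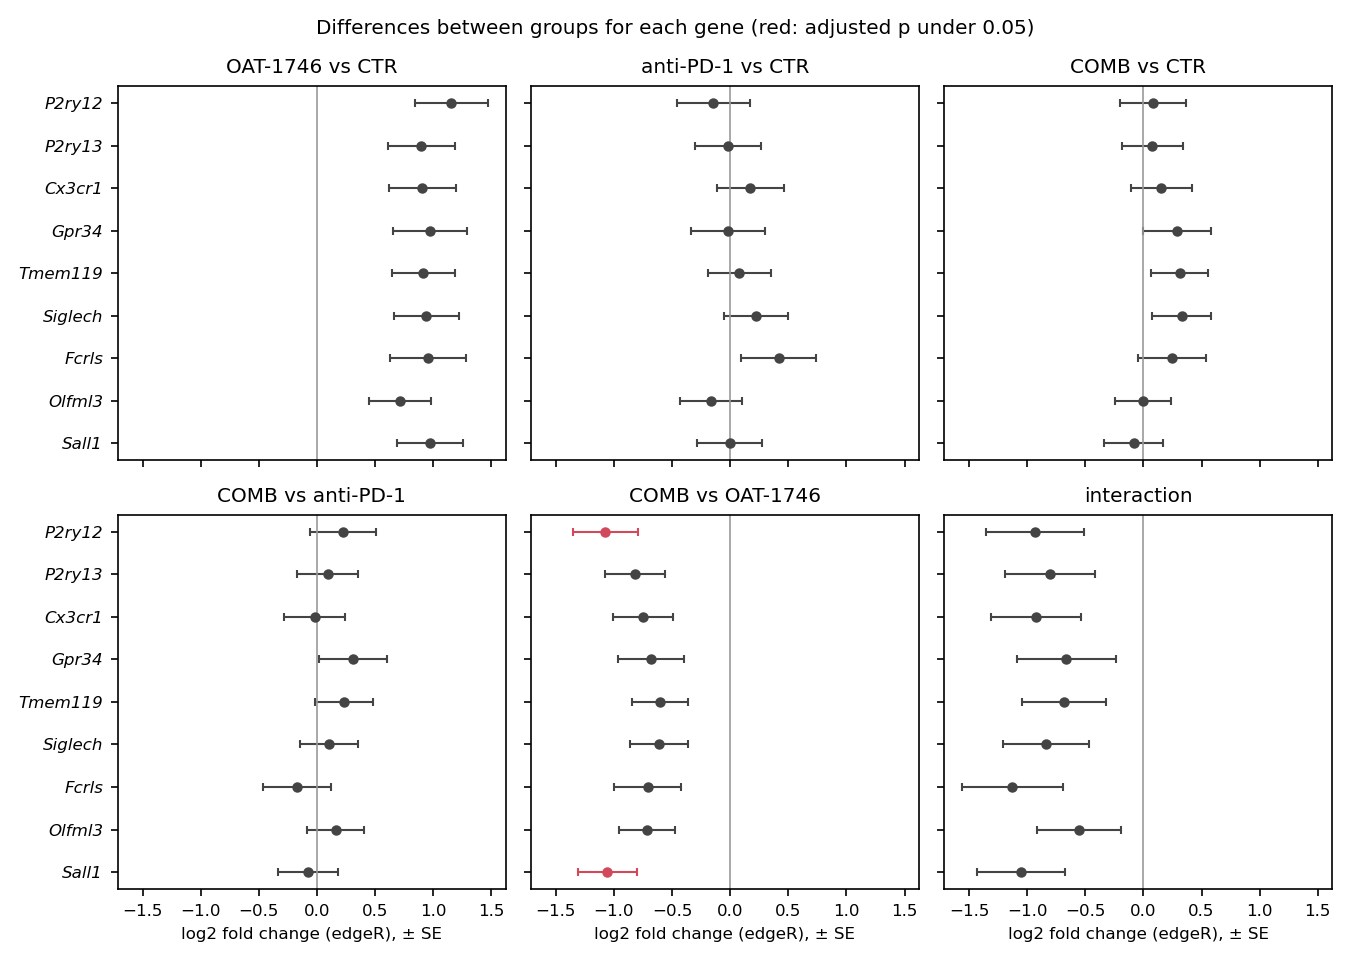
Log2 fold change of each member with its standard error in edgeR, by comparison. The values of OAT-1746 over CTR run from 0.71 to 1.16 and those of COMB over OAT-1746 from -1.07 to -0.60.

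COMB against OAT-1746 asks what the antibody added in mice given the inhibitor, and it shares the OAT-1746 libraries with the comparison to CTR. edgeR called 2 of 9 members, both lower in COMB, against 8.94% of all genes. P2ry12 fell by a log2 fold change of 1.07 (SE 0.28, adjusted p 0.0383) and Sall1 by 1.06 (SE 0.25, adjusted p 0.0331). The other 7 members had log2 fold changes from -0.82 for P2ry13 to -0.60 for Tmem119, with adjusted p up to 0.118. All 9 were lower at an unadjusted p under 0.05, against 18.8% of all genes, and the members' median was -0.72. DESeq2 called 5 of 9 as lower, against 11.7% of all genes, adding P2ry13, Cx3cr1 and Olfml3 to P2ry12 and Sall1. limma voom with quality weights also called 5 as lower, against 11.6% of all genes lower and 22.4% in either direction. The COMB libraries were below both OAT-1746 libraries for 9 of 9 members, against 28.9% of all genes. This count rests on the TMM factors, since Siglech was higher in COMB 1 than in OAT-1746 1 with library size as the only scaling. Single libraries changed the count for the members and for all genes, of which 15.8% were called in either direction with all libraries. edgeR called 7 members without COMB 1 (23.4% of all genes), 5 without OAT-1746 1 (31.4%) and 2 without CTR 2 (6.28%). It called 0 members without CTR 1 (5.68%), OAT-1746 2 (0.21%), anti-PD-1 1 (6.67%), anti-PD-1 2 (7.18%), COMB 2 (0.112%) or COMB 3 (0.04%). In those 9 fits the sign of every member's change was negative.

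Anti-PD-1 against CTR asks what the antibody alone changed. edgeR called 0 of 9 members, against 0% of all genes; 0 had an unadjusted p under 0.05, against 5.12%, and DESeq2 called 0, against 0.114%. Of the members, 4 had positive and 5 negative log2 fold changes, with a median of -0.01 (-0.16 to 0.42). That median was -0.27 without CTR 1, 0.14 without anti-PD-1 2, and 0.46 without CTR 2, when all 9 were positive. For COMB against CTR, the combined treatment against vehicle, edgeR called 0 of 9 members, against 0% of all genes; 0 passed an unadjusted p under 0.05, against 6.58%, and DESeq2 called 0, against 0.285%. The median was 0.15 (-0.08 to 0.33), with 7 members positive; it was -0.12 without CTR 1, -0.09 without COMB 1, 0.25 without COMB 2, 0.29 without COMB 3, 0.52 without CTR 2 and -0.01 in limma voom. COMB against anti-PD-1, the inhibitor's effect beside the antibody, likewise had 0 of 9 called by edgeR (0% of all genes), 0 at an unadjusted p under 0.05 (7.23%) and 0 by DESeq2 (0.434%). Its median was 0.10 (-0.17 to 0.31), with 6 members positive, and was -0.08 without COMB 1, 0.19 without anti-PD-1 1, 0.20 without COMB 2, 0.25 without COMB 3 and -0.06 in limma voom. These comparisons share CTR, anti-PD-1 or COMB libraries with one another. The numbers of libraries limit them: the standard error of a member's log2 fold change was about 0.3, so small differences could not be told from the spread between replicates.

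The interaction asks whether the inhibitor's effect differed with and without the antibody, as the log2 fold change of COMB over anti-PD-1 minus that of OAT-1746 over CTR. edgeR called 0 of 9 members, against 0.359% of all genes, and DESeq2 called 0, against 9.5%. At an unadjusted p under 0.05, 3 members were negative, against 14.4% of all genes: Fcrls at -1.13 (SE 0.43, adjusted p 0.153), Sall1 at -1.05 (SE 0.38, adjusted p 0.138) and Cx3cr1 at -0.92 (SE 0.39, adjusted p 0.173). All 9 members had negative values, with a median of -0.84 (-1.13 to -0.55), and 1 member was called without COMB 1, where 3.4% of all genes were. limma voom with quality weights called 0 members in the interaction, against 3.41% of all genes. In the test for any difference among the 4 groups, edgeR called 0 of 9 members, against 0.191% of all genes, with adjusted p from 0.104 to 0.204. At an unadjusted p under 0.05 there were 8, against 27.7% of all genes, and DESeq2 called 7, against 17.7%. Without OAT-1746 1 edgeR called 1 member and 18.5% of all genes, and without COMB 1 it called 1 member and 1.6%.

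Levels of different members were compared per length, as RPKM, which divides CPM by the kilobases of annotated exons. Averaged over the 9 libraries (SD over libraries), Tmem119 was at 1099 ± 340.3, Cx3cr1 at 1006 ± 328 and P2ry12 at 920.2 ± 436 RPKM. Fcrls followed at 625 ± 199, P2ry13 at 490.5 ± 171, Gpr34 at 344 ± 126 and Olfml3 at 308 ± 95.2. Siglech, at 91.2 ± 29.0, and Sall1, at 65.5 ± 26.2, were the lowest. By group means P2ry12 was first in OAT-1746, at 1613 RPKM against 1607 for Tmem119, and Cx3cr1 in anti-PD-1, at 900.7 against 899.9. Even Sall1 was above 94.0% of the genes tested, and Tmem119 above 99.7%. The order of neighbours in this ranking held in 9 of 9 libraries except for Tmem119 over Cx3cr1, Cx3cr1 over P2ry12 and Gpr34 over Olfml3, each in 7 of 9. Olfml3's length of 6161 bases is the largest of the 9 and lowers its RPKM beside its CPM. As shares of the members' counts, Cx3cr1 took 27.8% to 32.6%, Tmem119 15.4% to 19.5%, P2ry12 12.9% to 18.1%, Olfml3 11.1% to 13.98%, Fcrls 7.98% to 11.3% and P2ry13 7.69% to 8.55%. Gpr34 took 4.10% to 5.28%, Siglech 1.79% to 2.29% and Sall1 1.73% to 2.58%. The widest span between libraries was that of P2ry12, whose highest library was 3.43 times its lowest, and the narrowest that of Olfml3, at 2.41 times.

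Across the 9 libraries the members followed each other closely, which is a description and was not tested. P2ry12 was most like P2ry13 (Pearson r 0.987), Tmem119 and Gpr34 were most like each other (0.988), and Olfml3 was most like P2ry12 (0.985). Cx3cr1 was nearest to P2ry13 (0.974), Siglech and Fcrls to Cx3cr1 (0.962 and 0.949), and Sall1 to P2ry12 (0.945). The lowest value was that of Sall1 with Tmem119, 0.836. The correlation of a member with the mean profile of the 9 was 0.937 to 0.993. Of the 9409 other genes compared with that profile over 9 libraries, the most alike were Bank1 (0.995), Jam2 (0.994), Lrrc3 (0.991), Adgrg1 (0.990) and Slc2a5 (0.990). The most opposite were Irak4 (-0.986), Ccdc102a (-0.975), Fbl (-0.970) and Atp6v0c (-0.969). Sharing a profile over so few libraries does not show a common control.

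**Figure D3:**
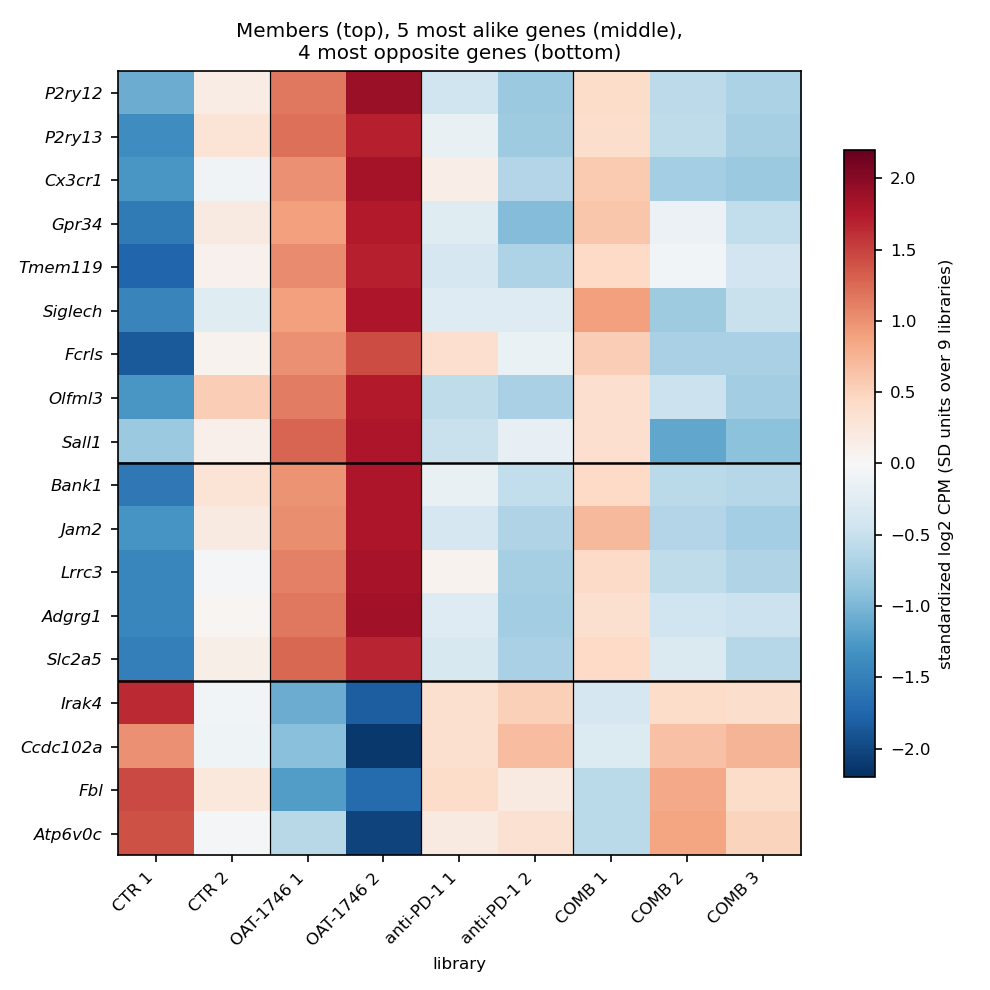
Standardized log2 level of the members and of the genes most alike and most opposite to their mean profile, by library. The mean of the members is lowest in CTR 1, at -1.38, and highest in OAT-1746 2, at 1.74.

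Genes beside the members and their paralogs were read in the same libraries. Counts of list genes in OAT-1746 over CTR stand beside 16.1% of all genes higher and 16.2% lower at an unadjusted p under 0.05, and 8.7% higher and 7.67% lower called by DESeq2. Med12l, which holds P2ry12 and P2ry13, was at 12.01 and 15.9 CPM in CTR, 28.9 and 32.6 in OAT-1746, 14.4 and 18.8 in anti-PD-1, and 15.6, 11.2 and 10.9 in COMB. P2ry14, next to P2ry13 and another nucleotide receptor, was lowest in OAT-1746 2, at 9.67 CPM, and highest in COMB 2, at 76.5. Cask, which holds Gpr34, was at 33.8 and 43.4 CPM in CTR and 60.1 and 78.8 in OAT-1746. Of the 12 neighbors tested, edgeR called 0 in OAT-1746 over CTR, where 5 were higher and 3 lower at an unadjusted p under 0.05 and DESeq2 called 6; Selplg, beside Tmem119, was the most abundant, and Fcrl5, beside Fcrls, had the lowest change, -4.31, from 0 to 46 counts. Sall3, a paralog of Sall1, was at 42.2 and 40.6 CPM in CTR, 102 and 130 in OAT-1746, 55.5 and 66.7 in anti-PD-1, and 58.5, 33.6 and 37.8 in COMB. Among the 20 paralogs tested, 5 were higher and 5 lower at an unadjusted p under 0.05, edgeR called 0 and DESeq2 8, and Sall4 was at 0 in each library.

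The most abundant gene of a list is given by its mean over the 9 libraries; by group means another gene led in at least 1 group for the other microglia, transcription factor, disease-associated, immediate early, NK, T, endothelial and glioma cell lists. The 28 other microglia genes had a median log2 fold change of 0.81 in OAT-1746 over CTR, from -0.36 for Ctss, the most abundant, to 1.30 for Nav3. Of these, 23 were higher at an unadjusted p under 0.05, edgeR called 0 and DESeq2 17; in COMB over OAT-1746 their median was -0.52. Their summed level was 36173 and 44978 CPM in CTR, 55361 and 65123 in OAT-1746, 43181 and 38977 in anti-PD-1, and 49179, 42825 and 42029 in COMB. For OAT-1746 over CTR, 10 of 21 microglial transcription factor and TGF-beta genes had a positive change at an unadjusted p under 0.05, 0 were called by edgeR and 8 by DESeq2; their range was -0.25 for Spi1 to 2.10 for Tgif2, and Irf8 was the most abundant. Ligands and growth factors, 6 genes, ran from -1.61 for Nt5e to 0.55 for Entpd1, the most abundant, with 1 gene each way at an unadjusted p under 0.05, 0 called by edgeR and 1 by DESeq2. The 18 genes of disease-associated microglia summed to 13240 and 11636 CPM in CTR, 8219 and 5339 in OAT-1746, 10800 and 11271 in anti-PD-1, and 9222, 9231 and 9094 in COMB. Apoe was the most abundant over all libraries but led by group mean only in CTR, 14 of 18 had a negative change in OAT-1746 over CTR (Itgax -2.07 to Csf1 0.52), 6 at an unadjusted p under 0.05, edgeR called 0 and DESeq2 4. Monocyte and macrophage genes, led by Tgfbi, had negative changes in OAT-1746 over CTR for 20 of 20, or 19 with library size as the only scaling, when Ly6c2 (-0.04) was positive, as it was without CTR 2 (0.67) and without OAT-1746 2 (0.91); 6 passed an unadjusted p under 0.05, edgeR called 0 and DESeq2 5. They summed to 10946 and 10367 CPM in CTR, 8186 and 1407 in OAT-1746, 10815 and 12387 in anti-PD-1, and 7815, 11912 and 12416 in COMB, and S100a4, with the lowest change at -3.95, was at 0 in OAT-1746 2. The 17 immediate early and dissociation genes, led over all libraries by Junb, which led by group mean only in CTR and anti-PD-1, summed to 12991 and 12356 CPM in CTR, 18467 and 25943 in OAT-1746, 11821 and 15495 in anti-PD-1, and 6679, 7626 and 7728 in COMB. In COMB over OAT-1746 edgeR called 14 of them, all lower, against 8.94% of all genes, with a median of -2.16; it called 3 without OAT-1746 2, 3 without COMB 2 and 2 without COMB 3. With the replicate number as a block, edgeR called 1 of the 17 in COMB over OAT-1746, against 0.016% of all genes. Over all lists the genes with the smallest p that edgeR called there without the block were Egr1, Ier2, Jun, Tgif2 and Ier5. Their log2 fold changes were -3.74 (SE 0.26, adjusted p 0.00148 in edgeR), -1.67, -2.29, -2.11 and -1.35. Among fits that left out 1 library, Tgif2 and Ier5 were not called without COMB 2 (adjusted p 0.0661 and 0.0796) or COMB 3 (0.0818 and 0.0957), nor Ier5 without OAT-1746 2 (0.0541) or Jun without COMB 3 (0.0518). In the interaction edgeR called 6 list genes, 5 of them immediate early, against 0.359% of all genes; those with the smallest p were Egr1 (-3.87), Jun (-2.80), Ier2 (-1.73), Tgif2 (-2.95) and Ier5 (-1.94). These 5 had adjusted p of 0.0564 to 0.218 without CTR 1, CTR 2, anti-PD-1 2, COMB 2 or COMB 3, and Ier2 had 0.0513 without anti-PD-1 1. In OAT-1746 over CTR the 17 genes ran from -0.07 for Ier3, which was positive with library size as the only scaling and without CTR 1 (0.24), to 2.62 for Hspa1b, which was negative without OAT-1746 2 (-0.40); 8 were higher at an unadjusted p under 0.05, edgeR called 0 and DESeq2 6. Whether the composition of the sorted cells or their handling bears on the members' levels was not tested, and in bulk RNA fewer cells of a type and less RNA per cell cannot be told apart.

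**Figure D4:**
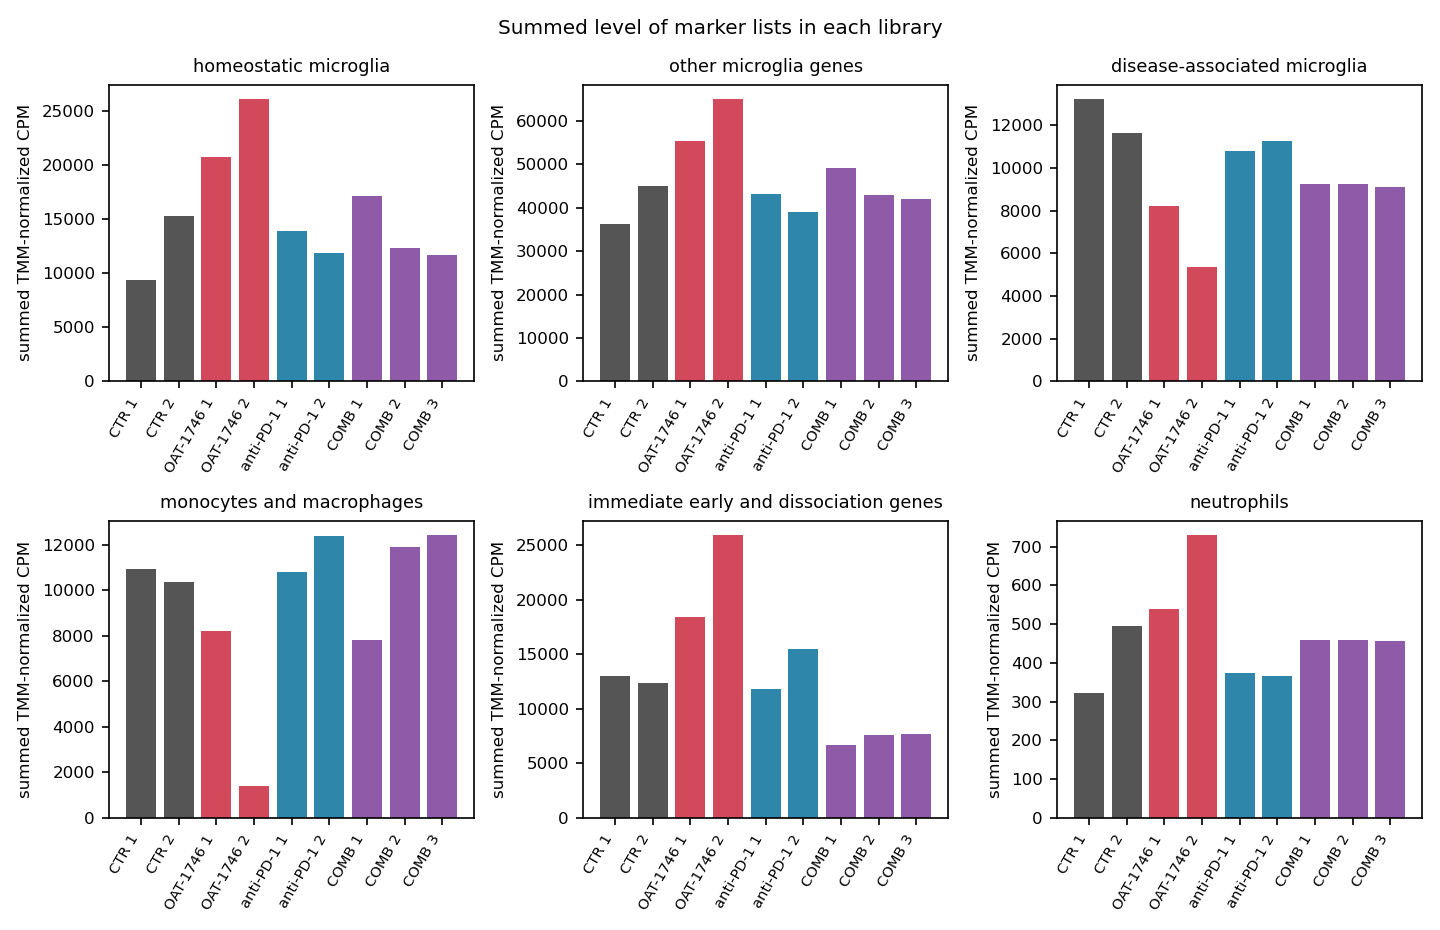
Summed level, in CPM by library, of the members and of the other microglia, disease-associated, monocyte and macrophage, immediate early and neutrophil lists. The members reach 20788 and 26141 CPM in OAT-1746, and the monocyte and macrophage genes fall between 1407 CPM in OAT-1746 2 and 12416 in COMB 3.

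The remaining cell type lists summed to less than the members in each of the 9 libraries. Neutrophil genes summed to 321 and 496 CPM in CTR and 540 and 730 in OAT-1746, with 5 of 10 higher at an unadjusted p under 0.05, 0 called by edgeR and 1 by DESeq2; Csf3r was the most abundant, and changes ran from -0.08 for Cxcr2, positive with library size as the only scaling, without CTR 2 (0.45) and without OAT-1746 1 (0.31), to 1.14 for Ngp. Border-associated macrophage genes, led by Stab1, had log2 fold changes from -2.05 for Ms4a7 to 0.93 for Cd163, with 2 genes each way at an unadjusted p under 0.05, 0 called by edgeR and 3 by DESeq2. Dendritic cell genes, which include Siglech and were led by Fscn1, ran from -1.25 for Clec9a to 1.06 for Fscn1, with 3 higher and 2 lower at an unadjusted p under 0.05, 0 called by edgeR and 2 by DESeq2. Summed NK, T and B cell genes did not exceed 332, 26.4 and 25.8 CPM in a library, with Klrk1, Cd4 and Cd79b the most abundant. In OAT-1746 over CTR they ran from -0.75 for Klrk1 to 1.81 for Klre1, from 0.09 for Cd4 to 2.10 for Cd3g, and from -0.58 for Cd79a to 0.78 for Cd79b. Some of these genes were near the floor. Means in CTR and OAT-1746 were 0.359 and 1.28 CPM for Klre1, 0.150 and 0.663 for Cd3g, and 0.569 and 0.378 for Cd79a. The standard errors of their changes were 0.92, 1.17 and 1.31. Without OAT-1746 2 the sign changed for Klrk1 (0.05), Cd4 (-0.42) and Cd79a (0.42), and without CTR 1 for Cd79a (1.63). Astrocyte, oligodendrocyte, endothelial and glioma cell genes did not exceed 223, 371, 153 and 33.3 CPM, led by Slc1a3, Cnp, Flt1 and Olig1. Their changes ran from -0.39 for Aldh1l1 to 1.15 for Slc1a3, from -0.38 for Cnp to 0.97 for Mobp, from 0.03 for Flt1 to 0.72 for Ly6c1, and from -1.47 for Sox2 to 0.28 for Cspg4. Flt1 was negative without CTR 2 (-0.18) and OAT-1746 1 (-0.27), and Cspg4 without CTR 1 (-0.28) and OAT-1746 2 (-0.10). For these 4 lists and the NK, T and B cell lists edgeR called 0 genes in OAT-1746 over CTR, DESeq2 called only Slc1a3, and 5 genes passed an unadjusted p under 0.05.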

How the data were processed

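The authors deposited raw counts per gene: reads were trimmed with Trimmomatic, aligned to mm10 with STAR, marked with Picard and counted by HTSeq, reverse stranded, at a mapping quality of at least 10. Gene names, types and coordinates came from GENCODE M21, which covered 53620 of 53801 genes. Of 21890 protein-coding genes, 12538 passed edgeR's filterByExpr (minimum count 10).

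All 9 libraries were fitted together with edgeR 4.0.16 (TMM, quasi-likelihood test, 4 groups, Benjamini-Hochberg over all genes tested) in R 4.3.3. A gene was called at an adjusted p under 0.05. Alternatives were DESeq2 1.42.0, limma 3.58.1 voom with quality weights, other scalings and filters, the replicate number as a block, and leaving out each library; the interaction and any-difference tests used the same fit. On simulated data in which 200 genes differed by 2 on the log2 scale, more than the members did, edgeR called 170 of them with 14 false calls, DESeq2 172 with 41 and limma 164 with 11. Earlier results of these data were known when the members, the gene lists and the design were chosen.

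The rule for naming genes was: all members; from each other list the most abundant gene and those with the highest and lowest log2 fold change in OAT-1746 over CTR; up to 5 called list genes per comparison by p; the genes most like and most unlike the members; and genomic neighbors and paralogs. The neighbors and paralogs given library by library were picked after their values were seen. Anti-PD-1 replicate 2 carries a treatment label naming another antibody target and was grouped by its title. Plots used matplotlib 3.10.9 (Python 3.11.15).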

Additional observations from a re-analysis of the deposited data

How the results depend on the processing

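All 9 members kept the sign of their log2 fold change under each of the 16 alternatives in OAT-1746 over CTR (0.39 to 1.57), COMB over OAT-1746 (-1.37 to -0.39) and the interaction (-1.66 to -0.20). In anti-PD-1 over CTR, COMB over CTR and COMB over anti-PD-1, whose values lay near 0, the sign changed in 19, 26 and 20 of 144 values; the median was 0.04, -0.01 and -0.06 with limma voom and 0.01, 0.26 and 0.20 with the replicate block. Counts of called members changed. With DESeq2, 8 were called in OAT-1746 over CTR (0 by edgeR, 9 at an unadjusted p under 0.05). It called 5 in COMB over OAT-1746 (2 by edgeR) and 7 for any difference (0 by edgeR, 8 at an unadjusted p under 0.05). limma voom with quality weights called 5 in COMB over OAT-1746, where it called 22.4% of all genes. In OAT-1746 over CTR limma voom called 0 members and 0% of all genes, and for any difference 0 members and 3.16%. With the replicate number as a block (replicate block), edgeR called 0 members in COMB over OAT-1746, and calls over all genes went from 1979 to 2; of the 5 list genes named there, Egr1 was called with the block and Ier2, Jun, Tgif2 and Ier5 were not (adjusted p 0.0994, 0.118, 0.126 and 0.188), and in the interaction 0 of these 5 were; DESeq2 without the block called 5. Libraries with the same number in different groups were correlated at -0.349 to 0.0999 after group means were removed, and 0 of 9 libraries was closest to one of its own number. In a group of 2 libraries the deviations from the mean mirror each other, so these correlations are not independent. They cannot decide whether libraries of one number were processed together, and the labels give only the number. Leaving out each library gave 0 to 7 member calls in OAT-1746 over CTR, 0 to 7 in COMB over OAT-1746, 0 to 1 in the interaction and 0 to 1 for any difference, while calls over all genes in the same fits ran from 0 to 3617, 5 to 4033, 0 to 2734 and 0 to 2381; a group left with 1 library is assumed to vary like the other groups. Of 720 values of genes from the other lists, 624 kept their sign and their side of the threshold and 17 changed sign, all in OAT-1746 over CTR. With library size as the only scaling, Ier3 was at 0.0178, Cxcr2 at 0.0148 and Ly6c2 at 0.00630. Leaving out each library gave ranges of -0.400 to 6.65 for Hspa1b, -2.59 to 0.0456 for Klrk1, -0.277 to 1.24 for Cspg4, -6.18 to 1.63 for Cd79a, -0.423 to 0.468 for Cd4, -0.329 to 0.237 for Ier3, -0.611 to 0.447 for Cxcr2, -0.270 to 0.289 for Flt1 and -3.65 to 0.913 for Ly6c2. The sign changed without OAT-1746 2 for Hspa1b, Klrk1, Cspg4, Cd79a, Cd4 and Ly6c2, without CTR 1 for Cspg4, Cd79a and Ier3, without CTR 2 for Cxcr2, Flt1 and Ly6c2, and without OAT-1746 1 for Cxcr2 and Flt1. For each of these changes the cause was not tested.

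Groups of 2 and 3 libraries limit these comparisons more than depth does: the members had 3186 to 132400 counts per library, while one library decided several calls. A p above the threshold does not show that levels were equal.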
